A study of Canis lupus familiaris with 8 samples.

Results

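TOX, CD244, FCRL5 and GCSAM were followed as 4 of the 20257 genes counted in blood T cells of the dog. They were taken by symbol from the gene list of the expression matrices, as TOX (ENSCAFG00000007137), CD244 (ENSCAFG00000012647), FCRL5 (ENSCAFG00000023822) and GCSAM (ENSCAFG00000030826), and each symbol matched 1 row. The genes were chosen by their measured levels in CD4 and CD8A cells with and without FCER1G, GZMB and PDCD1 transcripts. Their levels across those cells, and between CD4 and CD8A cells, are therefore a description and carry no test. The cells were viable TCRαβ+ T cells, sorted from blood mononuclear cells of 4 healthy, untreated Beagles and frozen after the sort, and each dog gave 1 transcriptome library from the 5' end of transcripts and 1 T cell receptor library. The animals were 1 female (dog 1, aged 5 years) and 3 males (dogs 2 and 3 aged 7 years, dog 4 aged 9 years), so sex and age cannot be told apart from the single animal. There was no treated group, and every comparison was made between cells of the same 4 dogs, with the dog as the replicate (n = 4).

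TOX encodes a nuclear protein with a DNA-binding HMG box that is known for the program of exhausted CD8 T cells, the cells that persist under long exposure to antigen with reduced effector function. CD244, also called 2B4, is a receptor of the SLAM family on natural killer (NK) cells and cytotoxic T cells that binds CD48 and signals through adaptors such as SH2D1A. FCRL5 belongs to the Fc receptor-like proteins and GCSAM encodes a signaling and motility protein of germinal center B cells, and both are known mainly from B cells. FCER1G encodes an adaptor chain of Fc and NK receptors that marks innate-like T cells, GZMB encodes the cytotoxic protease granzyme B, and PDCD1 encodes the inhibitory receptor PD-1.

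Counts were unique molecular identifiers (UMIs), 1 for each captured transcript molecule. The libraries held 26904346 to 35661623 UMIs, and 31909 cells passed the limits of 500 to 20000 UMIs and at most 10% mitochondrial UMIs (7096, 8454, 8109 and 8250 cells in dogs 1 to 4, median 3599 to 3931.5 UMIs). By the presence of CD4 and CD8A UMIs, 13247 cells were CD4 single-positive (sp), 6427 were CD8A sp, 725 were double-positive (dp) and 11510 were double-negative (dn). Against the labelled cell type, 99.0% of the cells had a UMI of at least 1 of 5 T cell genes, which summed to 2833 to 3097 CPM (UMIs of a gene scaled to a library of 1000000 UMIs) per dog, whereas 9 B cell genes summed to 6.59 to 12 CPM. Genes of myeloid cells summed to 1394 to 2770 CPM, and at least 1 of them had a UMI in 77.5% of the cells. Cell barcodes found in more than 1 library numbered 545 and covered 1094 cells. Of the 302 shared barcodes with a TCRβ chain (TRB) in at least 2 libraries, 0 carried the same TRB rearrangement in both.

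All 4 genes were sparse. TOX had a UMI in 7116 cells (22.3%), CD244 in 1523 (4.77%), FCRL5 in 395 (1.24%) and GCSAM in 655 (2.05%). Of the cells with a UMI of the gene, 73.5% for TOX and 79.4% for CD244 had exactly 1, and the shares for FCRL5 and GCSAM were both 77.7%. A level in CPM was therefore computed from the summed UMIs of a class of cells in a dog, and such a level rises alike when more cells hold the transcript and when each cell holds more. A class with fewer than 20 cells in a dog was given no level there.

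CD244, FCRL5 and GCSAM were mostly CD8A genes, whereas TOX was present in both lineages. CD244 reached 53.7, 45.3, 43.0 and 71.6 CPM in the CD8A sp cells of dogs 1 to 4 (53.4 ± 13.0, SD, n = 4), against 1.05, 5.54, 0.618 and 11.1 CPM in the CD4 sp cells (4.59 ± 4.90). FCRL5 stood at 19.1, 18.5, 4.66 and 20.8 CPM in CD8A sp cells (15.7 ± 7.45), against 0.845 ± 0.850 CPM in CD4 sp cells. For GCSAM the CD8A sp levels were 22.3, 23.2, 9.55 and 24.6 CPM (19.9 ± 6.97), against 2.33 ± 0.882 CPM in CD4 sp cells. These lineages took part in the choice of the genes, so the differences between them are a description. Dog 3 was the low dog for FCRL5 and GCSAM. TOX was at 95.1, 101, 70.4 and 130 CPM in CD8A sp cells (99.2 ± 24.6) and between 75.1 and 82.5 CPM in CD4 sp cells (78.1 ± 3.32), and dog 3 had less TOX in its CD8A sp than in its CD4 sp cells.

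Shares of cells with a UMI gave the same order. A CD244 UMI was found in 16.6% ± 3.84 of CD8A sp and 1.62% of CD4 sp cells, an FCRL5 UMI in 5.18% ± 2.39 and 0.280%, and a GCSAM UMI in 5.69% ± 2.45 and 0.897%. A TOX UMI was found in 25.2% ± 4.78 and 24.1%. Median depth was 3726 UMIs in CD8A sp and 3955 UMIs in CD4 sp cells. The 4749 kept cells under 2000 UMIs were set aside and the others thinned to that number with their class kept from all UMIs, after which the shares in CD8A sp cells were 15.2% for TOX, 9.47% for CD244, 2.41% for FCRL5 and 2.97% for GCSAM, and in CD4 sp cells 13.7%, 0.873%, 0.146% and 0.380%. In the FOXP3+ CD4 sp cells FCRL5 had a UMI in 0 of 622 cells, which allows a share of up to 0.482% at a median of 4784.5 UMIs. The part of free transcript in the CD4 sp counts was not tested. The FCRL5 share in all CD4 sp cells ran from 0.0273 to 0.586% over dogs, on both sides of that limit. It was 2.31% in GZMB+ CD4 sp cells (0 to 5.83%) and 2.87% in KLRK1+ ones that lacked the markers of FOXP3+, GATA3+ LGALS3+ and CXCR3+ cells (0 to 4.60%, measured in 3 dogs).

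**Figure D1:**
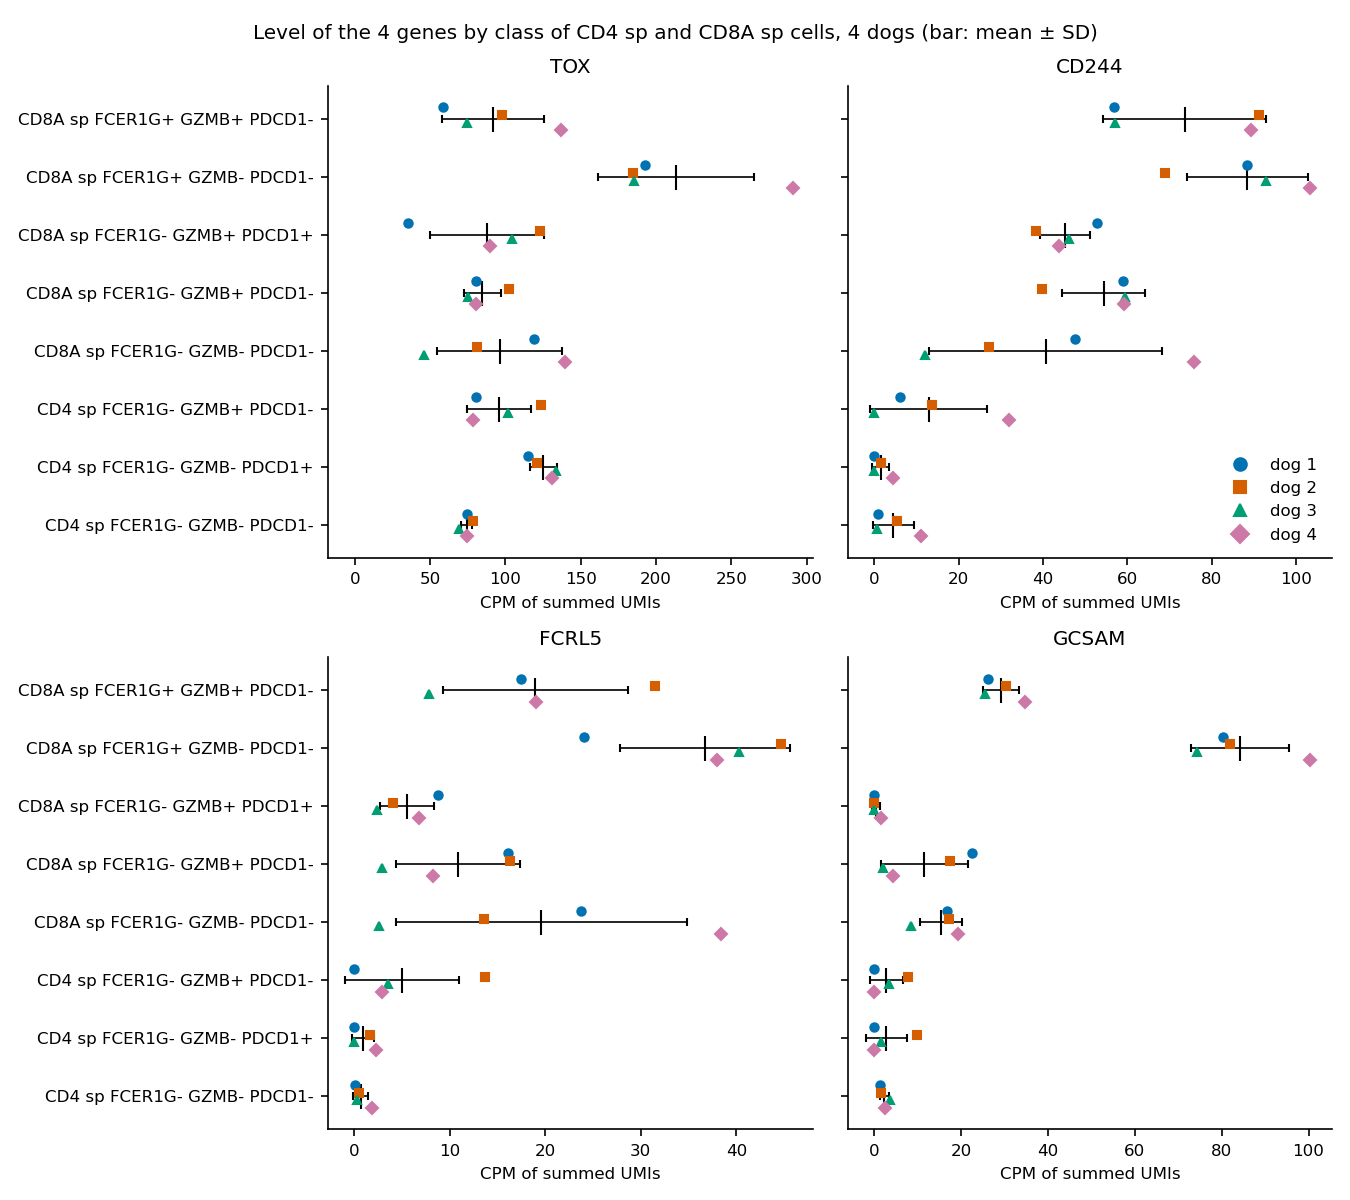
Levels of TOX, CD244, FCRL5 and GCSAM in CPM (horizontal axes) in 8 classes of CD4 sp and CD8A sp cells by FCER1G, GZMB and PDCD1 (vertical axis). Points are dogs, and the tick and whiskers are the mean ± SD over dogs. All 4 genes had their highest mean in CD8A sp FCER1G+ GZMB- PDCD1- cells, at 214, 88.3, 36.8 and 84.2 CPM.

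Split by the presence of FCER1G, GZMB and PDCD1 UMIs, 8 classes of sp cells had at least 20 cells in every dog, and all 4 genes were highest in the same one, the CD8A sp FCER1G+ GZMB- PDCD1- cells. This class was small, with 25, 122, 75 and 237 cells in dogs 1 to 4 and a median of 4143 UMIs. GCSAM was at 80.3, 82.0, 74.3 and 100.3 CPM in it (84.2 ± 11.2) and TOX at 193, 184, 186 and 291 CPM (214 ± 51.9). CD244 was at 88.4, 68.9, 92.9 and 103 CPM (88.3 ± 14.4) and FCRL5 at 24.1, 44.7, 40.2 and 38.0 CPM (36.8 ± 8.89). A GCSAM UMI was found in 24.9% ± 3.81 of these cells, a TOX UMI in 48.5%, a CD244 UMI in 28.5% and an FCRL5 UMI in 14.1%, and after thinning the shares were 14.0%, 32.0%, 16.6% and 3.94%.

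For GCSAM the order of classes was steep. Every dog's value in the highest class lay above every dog's value in the next one, the FCER1G+ GZMB+ PDCD1- cells (29.2 ± 4.22 CPM), which in turn was clear of the third, the FCER1G- GZMB- PDCD1- cells (15.4 ± 4.78). The FCER1G- GZMB+ PDCD1- cells, at 11.6 ± 9.96 CPM, ranged from 2.10 in dog 3 to 22.5 in dog 1 and did not separate from the third class. In CD8A sp cells with GZMB and PDCD1 but no FCER1G, GCSAM was found as 1 UMI in 1 of 378 cells. The 3 CD4 classes lay between 2.33 and 2.85 CPM with overlapping ranges.

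TOX was also clear of its next class, but that class was a CD4 one. The CD4 sp FCER1G- GZMB- PDCD1+ cells, with 115, 121, 134 and 131 CPM (125 ± 8.81), stood second, and a TOX UMI was found in 41.9% of these 519 cells. From there on the means ran from 96.3 down to 74.3 CPM with overlapping ranges. Over all CD4 sp cells, TOX was at 133 ± 10.6 CPM in PDCD1+ cells and 74.9 ± 3.98 CPM in PDCD1- cells, and higher with PDCD1 in every dog. In CD8A sp cells the PDCD1 split went the other way in the mean, at 82.7 CPM with and 101 CPM without PDCD1.

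CD244 and FCRL5 declined without a gap. The CD244 means of the 5 CD8A classes ran 88.3, 73.5, 54.4, 45.2 and 40.6 CPM and those of the CD4 classes 13.0, 4.55 and 1.53 CPM, and in no pair of neighbours were the ranges over dogs apart. FCRL5 ran 36.8, 19.6, 19.0, 10.9 and 5.50 CPM in the CD8A classes, again with overlapping neighbours. The single splits of CD8A sp cells differed between genes. With and without FCER1G, GCSAM was at 44.8 and 11.8 CPM and CD244 at 74.2 and 46.7 CPM, whereas with and without GZMB, GCSAM was at 14.4 and 28.0 CPM and CD244 at 58.2 and 47.2 CPM. With and without PDCD1, FCRL5 was at 4.02 and 17.0 CPM and GCSAM at 3.26 and 21.6 CPM.

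Within the CD8A sp cells that lacked FCER1G and GZMB, the genes sorted further by memory and naive markers. The 430 cells with the lymph node homing receptor CCR7 and the transcription factor LEF1 held TOX at 84.3 ± 17.5 CPM but CD244 at 7.85, FCRL5 at 4.41 and GCSAM at 2.68 CPM. The 376 cells with granzyme K (GZMK) and the interleukin-7 receptor (IL7R) but not both CCR7 and LEF1, measured in dogs 2 to 4, had the lowest TOX of the states described here, at 45.9, 18.5 and 31.7 CPM, and held 2 GCSAM UMIs and 0 FCRL5 UMIs, which allows an FCRL5 share of up to 0.798%. The remaining 1209 cells held TOX at 115, CD244 at 56.1, FCRL5 at 27.7 and GCSAM at 23.8 CPM. In these remaining cells dog 3 was the low dog for all 4 genes, with TOX at 51.0, CD244 at 15.0, FCRL5 at 5.44 and GCSAM at 17.0 CPM.

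The 4 genes were found together in the same CD8A sp cells more often than the product of their shares gives. They were chosen by their levels in classes of these cells, so the ratios are a description and carry no test. FCRL5 and GCSAM shared 101 cells where the product, summed over dogs, was 18.8 (5.37 times). After thinning, with CD8A sp cells set again on the thinned counts, they shared 16 cells against 3.68 (4.35 times). TOX and GCSAM shared 258 cells against 90.6 (2.85 times, thinned 3.30 times), and CD244 and GCSAM shared 155 against 59.4 (2.61 times, thinned 2.28 times). TOX and CD244 had the lowest ratio, with 458 cells against 276 (1.66 times, thinned 1.42 times). A TOX UMI was found in 73.9, 71.3, 71.7 and 83.8% of the GCSAM+ cells of dogs 1 to 4, and in 20.2, 24.0, 18.2 and 26.4% of the GCSAM- cells. Cells with UMIs of all 4 genes numbered 42 among the CD8A sp cells (4, 14, 10 and 14 by dog), 2 among CD4 sp, 8 among dn and 0 of 725 among dp cells, which allows up to 0.414%. Depth moved with this count, from a median of 3530.5 UMIs in CD8A sp cells with none of the 4 genes to 5823 UMIs in those with all 4.

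Cells of 1 clone share a receptor, so the rearranged junctions give a label of the cell that the expression matrix does not use. The junctions below belong to the TRB clones with at least 10 GCSAM+ CD8A sp cells; they came from dogs 2 and 4. Capitals mark the bases between the stretches that at least 80% of the junctions with the same V gene (5' side) or J gene (3' side) share, and lower case marks the place of those stretches. Bases in lower case can differ from the shared ones, since the TRBV26 junctions of dog 2 differ from each other there.
dog 4, TRBV3-1/TRBJ2-1: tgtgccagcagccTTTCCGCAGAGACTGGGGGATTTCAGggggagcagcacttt
its TCRα chain TRAV24/TRAJ38: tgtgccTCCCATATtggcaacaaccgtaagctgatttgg
its TCRα chain TRAV9-7/TRAJ45: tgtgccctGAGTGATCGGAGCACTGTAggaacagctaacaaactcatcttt
dog 4, TRBV3-1/TRBJ1-6: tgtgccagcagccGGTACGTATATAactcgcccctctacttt
its TCRα chain TRAV24/TRAJ58: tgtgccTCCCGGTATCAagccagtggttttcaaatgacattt
its TCRα chain TRAV22/TRAJ56: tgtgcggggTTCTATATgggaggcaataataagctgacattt
dog 2, TRBV26/TRBJ1-6: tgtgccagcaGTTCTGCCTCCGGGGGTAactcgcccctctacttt
its TCRα chain TRAV43-1/TRAJ33: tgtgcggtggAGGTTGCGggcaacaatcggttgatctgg
dog 2, TRBV24/TRBJ1-3: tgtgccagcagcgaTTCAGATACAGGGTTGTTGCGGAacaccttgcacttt
its TCRα chain TRAV9-6/TRAJ30: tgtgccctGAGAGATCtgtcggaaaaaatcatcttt
dog 2, TRBV26/TRBJ2-6: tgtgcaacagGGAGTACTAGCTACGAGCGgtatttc
its TCRα chain TRAV43-1/TRAJ28: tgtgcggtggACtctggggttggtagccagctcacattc

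The largest of these clones was the TRBV3-1/TRBJ2-1 clone of dog 4, with 119 CD8A sp cells. TOX was found in 95 of them, CD244 in 45, FCRL5 in 26 and GCSAM in 41. FCER1G was found in all 119, GZMK in 1 and PDCD1 in 0. This clone carried 2 TCRα chains (TRA) in 92 cells, with TRAV24/TRAJ38 in 110 and TRAV9-7/TRAJ45 in 100 cells, and it made up 28.9% of the 142 GCSAM+ CD8A sp cells of dog 4. The TRBV3-1/TRBJ1-6 clone of the same dog, with another TRAV24 rearrangement in all its cells and TRAV22/TRAJ56 as a further chain in 15, had 21 cells, of which 21 held TOX, 14 CD244, 8 FCRL5 and 16 GCSAM.

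In dog 2 all 4 genes were found in each of the 3 clones printed above, which differed in FCER1G. The TRBV26/TRBJ1-6 clone had TOX in 27, CD244 in 12, FCRL5 in 16 and GCSAM in 16 of its 29 cells, and FCER1G in all 29. The TRBV24/TRBJ1-3 clone had TOX in 18, CD244 in 10, FCRL5 in 12 and GCSAM in 13 of its 22 cells, and FCER1G in 0. The TRBV26/TRBJ2-6 clone had TOX in 9, CD244 in 5, FCRL5 in 2 and GCSAM in 11 of its 13 cells, and FCER1G in all 13. FCRL5 was thus found in 15.4% of the cells of this clone, against 55.2% and 54.5% in the others.

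Across all clones of at least 10 CD8A sp cells with 1 TRA and 1 TRB, GCSAM was concentrated in few. There were 53 such clones (5, 8, 17 and 23 by dog) with 1386 cells. GCSAM was found in 0 cells of 42 clones and in at least 20% of the cells of 10 clones (1, 4, 1 and 4 by dog), and the 5 clones with most GCSAM+ cells held 58 of the 86 GCSAM+ cells. All 10 had TOX in at least 20% of their cells, CD244 and FCRL5 in at least 1 cell, GZMK in at most 20% of their cells and PDCD1 in 0 cells. Over all 53 clones, TOX reached 20% of the cells in 28. Only 8 of the 53 had no CD244+ cell, so CD244 was common to most clones, whereas 39 had no FCRL5+ cell. Some of the other clones also had GZMK in few cells or PDCD1 in 0. The reverse did not hold, since 17 clones with TOX in at least 20% of their cells had no GCSAM+ cell. One of those was a clone of dog 3 (TRAV9-6/TRAJ27 with TRBV5-2/TRBJ1-2), in which TOX was found in 44, CD244 in 30, FCRL5 in 1 and GCSAM in 0 of 123 cells, with GZMB in 118 and GZMK in 109. FCER1G was found in most cells of 5 of the 10 GCSAM clones and in at most 10% of the cells of 4 others, while 5 clones with FCER1G in most cells had no GCSAM+ cell.

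**Figure D2:**
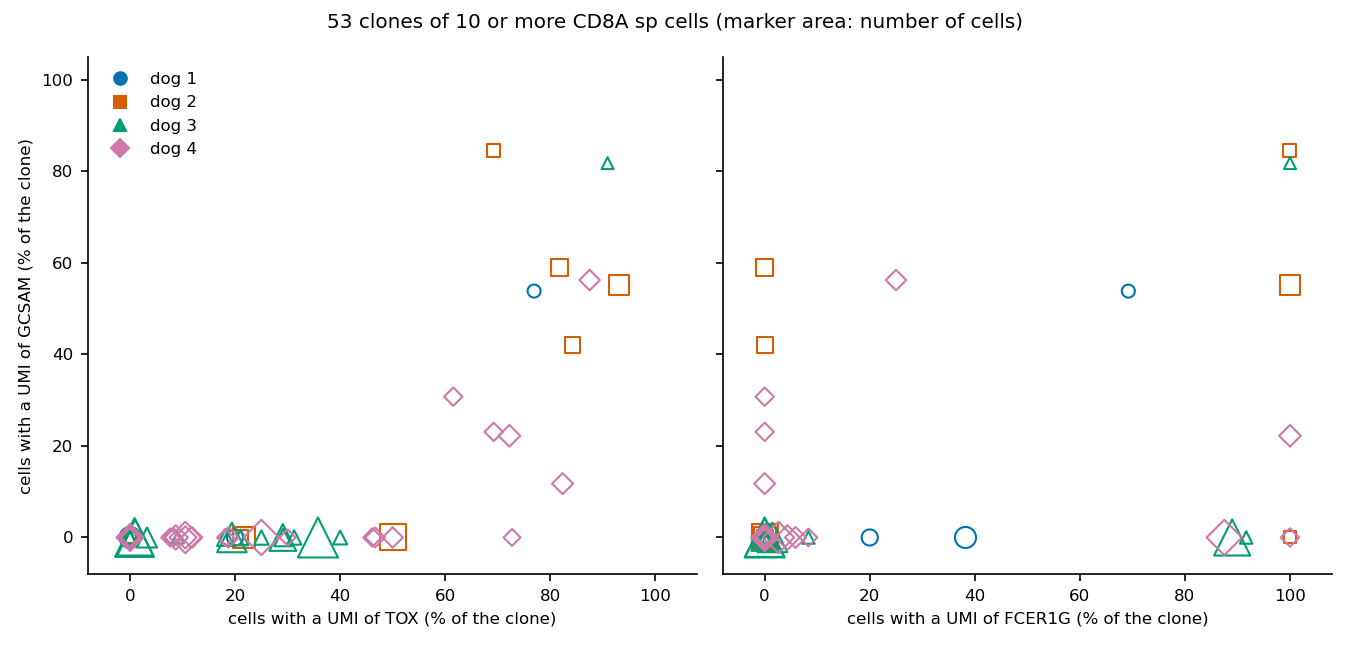
Percent of cells with a GCSAM UMI (vertical axis) against percent with a TOX UMI and percent with an FCER1G UMI (horizontal axes) in the 53 clones of at least 10 CD8A sp cells, with marker area by number of cells. The 10 clones with GCSAM in at least 20% of cells all lay at 20% TOX or more, as did 28 of all 53 clones, and were found both at high and at low FCER1G.

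Receptor chains gave 3 comparisons, which asked whether CD8A sp cells with a given TRA differ in the 4 genes. Cells with a TRAV24 chain (54, 154, 56 and 179 by dog) were set against the cells with other TRA. These others included cells with the TRAV9-11/TRAJ28 chain, which held 0 GCSAM UMIs and less TOX, as the next paragraph shows. The part of those cells in the changes below was not tested. GCSAM was at 33.4, 34.8, 71.4 and 104 CPM in TRAV24 cells and at 21.5, 25.2, 8.94 and 16.8 CPM in the others, higher in 4 of 4 dogs, with a log2 fold change of 1.86 (SE 0.38) and an adjusted p of 0.159 in edgeR's quasi-likelihood test. TOX was at 96.1, 152, 143 and 326 CPM against 102, 96.0, 66.3 and 117 CPM, higher in 3 of 4 dogs (log2 fold change 1.0, edgeR adjusted p = 0.465). For FCRL5 the change was 1.49 (edgeR adjusted p = 0.559) and for CD244 0.50 (edgeR adjusted p = 0.729). None of the 4 genes passed in edgeR, which called 0.0779% of 7701 genes. All 4 had an unadjusted p under 0.05, and DESeq2 called 1. With the dog as a block, the adjusted p was 0.0628 for GCSAM and 0.0529 for TOX. Both TRBV3-1 clones of dog 4 were printed above for their GCSAM+ cells. Their TRAV24 cells, 110 and 21, were part of this comparison, so its GCSAM value in dog 4 is not independent of that choice. The TRBV3-1/TRBJ2-1 clone held most of the TRAV24 cells of dog 4, and without clones of 10 or more cells the change of GCSAM was 1.56 (edgeR adjusted p = 0.186).

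Cells with the TRAV9-11/TRAJ28 chain, 675 in all (153, 181, 244 and 97 by dog), held little or none of 3 of the 4 genes. GCSAM had 0 UMIs in them in every dog, against 30.5, 31.3, 12.9 and 30.9 CPM in CD8A sp cells with other TRA, and was at least 19.99-fold lower against a floor of 3 UMIs over the group. TOX was at 19.9, 26.2, 24.3 and 22.2 CPM against 129, 118, 75.6 and 154 CPM and fell by 2.32 on the log2 scale (SE 0.26, edgeR adjusted p = 0.000203, 6.02e-13 to 0.00511 in the alternatives). FCRL5 also had 0 UMIs, against 25.0, 24.1, 6.03 and 24.4 CPM, at least 14.6-fold lower against the same floor. Both genes could pass the filter on low counts only through the cells with other TRA, so they are given by these bounds and their tests are not read as support. FCRL5 was under that filter in edgeR. It was tested and called in DESeq2, with no filter and without dog 3, and tested without a call without dog 1 (adjusted p = 0.115). CD244 was at 28.9, 61.1, 41.4 and 25.0 CPM against 65.8, 48.9, 45.6 and 77.2 CPM, lower in 3 of 4 dogs (log2 fold change -0.51, edgeR adjusted p = 0.347). Of the members whose tests are read, edgeR called TOX and did not call CD244, beside 4.53% of 7462 genes. The TRAV9-11/TRAJ28 cells were shallower, with median depths of 3299 to 3698 UMIs against 3895 to 4286, and after thinning TOX alone passed while GCSAM was no longer tested.

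Among cells with 1 TRB, those with 2 TRA (27, 52, 92 and 158 by dog) were set against those with 1 TRA. This gave no call, in the members or in any of 7601 genes (0% called in edgeR, 349 genes at an unadjusted p under 0.05, 1 gene called in DESeq2). GCSAM was at 31.8, 0, 24.7 and 91.4 CPM against 22.1, 32.2, 10.8 and 16.8 CPM (log2 fold change 1.24, edgeR adjusted p = 0.981). Dog 4 was the high dog, and without it the change of GCSAM was -0.20. The TRBV3-1/TRBJ2-1 clone of dog 4 held 92 cells with 2 or more TRA, beside the 158 cells of that dog in the comparison.

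Expanded clones, with 2 or more cells, were compared with cells whose receptor was found once. Among CD8A sp cells CD244 was at 64.8, 64.6, 52.8 and 83.1 CPM in expanded cells and at 33.3, 39.9, 35.9 and 32.7 CPM in single ones. The log2 fold change was 0.84 (SE 0.15, edgeR adjusted p = 0.0239). The call was lost without dog 1 (adjusted p = 0.139), dog 2 (0.113) or dog 4 (0.0953) and after thinning (0.185), and the adjusted p was 0.00313 with the dog as a block. TOX (log2 fold change 0.44, adjusted p = 0.531), FCRL5 (0.82, adjusted p = 0.598) and GCSAM (0.72, adjusted p = 0.644) were higher in 3 of 4 dogs, with dog 3 the exception for all of them, and did not pass in edgeR. That is 1 of 4 members called, beside 0.7% of 8001 genes.

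Among CD4 sp cells the expanded ones again held more CD244, at 23.7, 17.4, 1.18 and 16.3 CPM against 0.561, 1.29, 0.641 and 3.22 CPM (log2 fold change 3.28, SE 0.64, edgeR adjusted p = 0.0149). Dog 3 stood far below the other dogs in its expanded CD4 sp cells. CD244 was the 1 member called of 3 tested, where edgeR called 5.78% of 9175 genes. It lost the call without dog 2 (adjusted p = 0.165) and was too low to be tested without dog 4 or after thinning. Expanded cells numbered 66, 556, 355 and 924 by dog. CD244 passed the filter on low counts mainly through the expanded cells of dogs 1, 2 and 4, so its call is not read as support. TOX was at 122, 96.4, 29.5 and 74.3 CPM against 78.4, 77.4, 95.1 and 83.6 CPM, in opposite directions among dogs (log2 fold change -0.22, edgeR adjusted p = 0.680). GCSAM changed by 0.12 (edgeR adjusted p = 0.95).

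TCF7 encodes TCF-1, a transcription factor of naive, memory and progenitor exhausted T cells, and KLRG1 is a receptor of terminal effector cells. CD8A sp cells with a TCF7 UMI (287, 596, 776 and 679 by dog) held more GCSAM than those without, at 29.9, 43.9, 17.4 and 45.9 CPM against 15.5, 3.81, 4.07 and 9.74 CPM. The log2 fold change was 2.23 (SE 0.41, edgeR adjusted p = 0.0146). The call was lost without dog 2 (adjusted p = 0.122) or dog 4 (0.0682), and without dog 3 the number of members called was 3. TOX was at 126, 125, 77.7 and 196 CPM against 67.3, 79.0, 65.5 and 84.7 CPM (log2 fold change 0.82, adjusted p = 0.0589) and FCRL5 at 23.9, 30.1, 7.75 and 39.6 CPM against 14.8, 7.62, 2.52 and 7.62 CPM (1.84, adjusted p = 0.0761), both higher in 4 of 4 dogs without passing in edgeR. CD244 differed by 0.21 (edgeR adjusted p = 0.731). So 1 of 4 members passed, beside 3.51% of 8964 genes, and with the dog as a block 3 passed, TOX (adjusted p = 0.000112), FCRL5 (1.81e-05) and GCSAM (6.04e-06). TCF7+ cells were deeper, with medians of 4371 to 4638 UMIs against 3227 to 3656, and after thinning the change of GCSAM was 2.05 (edgeR adjusted p = 0.0132).

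Against KLRG1 the 4 genes went the other way, each being lower in KLRG1+ CD8A sp cells in 4 of 4 dogs. GCSAM was at 8.20, 7.29, 2.48 and 10.2 CPM with KLRG1 and 28.4, 29.1, 14.6 and 35.0 CPM without it (log2 fold change -1.96, SE 0.38, edgeR adjusted p = 0.0936). TOX was at 39.8, 70.5, 56.0 and 79.5 CPM against 119, 113, 80.7 and 167 CPM (-0.89, adjusted p = 0.163), FCRL5 changed by -1.93 (adjusted p = 0.275) and CD244 by -0.34 (adjusted p = 0.724). GCSAM, TOX and FCRL5 had an unadjusted p under 0.05, but none passed in edgeR, which called 0.022% of 9076 genes, and DESeq2 called 2. Without dog 3 edgeR called 1, and with the dog as a block 3 passed, GCSAM (adjusted p = 1.94e-06), TOX (3.16e-05) and FCRL5 (0.000271). Depth differed little here, with medians of 3674 to 3958 UMIs in KLRG1+ and 3521.5 to 3981.5 UMIs in KLRG1- cells.

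In CD4 sp cells, FOXP3, the transcription factor of regulatory T cells, marked cells with more TOX. TOX was at 133, 131, 92.6 and 94.8 CPM in the FOXP3+ cells (97, 191, 192 and 142 by dog) and at 73.9, 79.0, 73.5 and 77.9 CPM in the FOXP3- cells. TOX changed by 0.56 on the log2 scale (SE 0.12, edgeR adjusted p = 0.0233). It was the 1 member called of 3 tested, beside 5.02% of 9543 genes, and the call was lost without dog 1 (adjusted p = 0.0573), dog 2 (0.212) or dog 3 (0.0633) and after thinning (0.689). FCRL5 had 0 UMIs in FOXP3+ and 47 in FOXP3- cells, and CD244 (log2 fold change -1.64, adjusted p = 0.559) and GCSAM (-0.64, adjusted p = 0.665) did not pass in edgeR. The FOXP3+ cells were deeper, with medians of 4633.5 to 4879 UMIs against 3726 to 4072.5. Markers of other cells moved with the split. Both tested myeloid genes were higher with FOXP3. LYZ was at 1.89 to 7.12 CPM against 0.234 to 0.415 CPM. It could pass the filter on low counts only through the FOXP3+ cells, so its test is not read as support. S100A8 rose from 1121 to 2885 CPM to 3504 to 4001 CPM (log2 fold change 0.83, edgeR adjusted p = 0.0427). Of 3 B cell genes MS4A1 rose (2.40), and of 2 genes of proliferating cells MKI67 rose (2.69). The part of depth and of these cells in the TOX result was not tested beyond the thinned value.

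**Figure D3:**
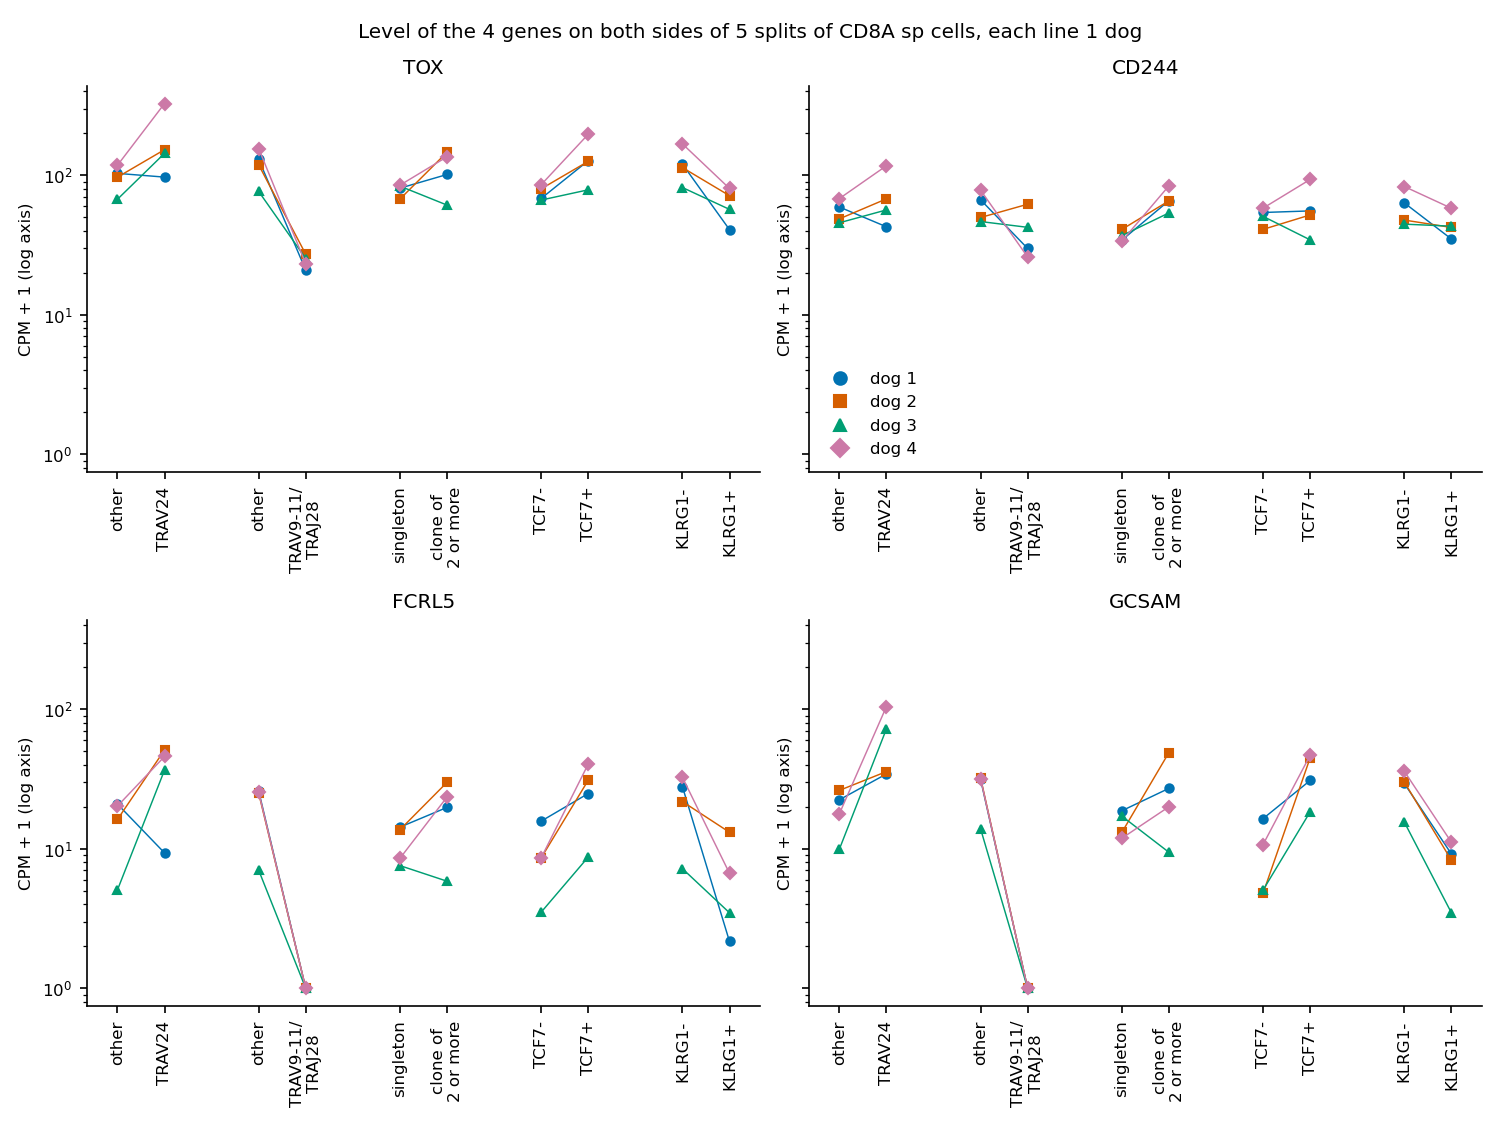
Levels of the 4 genes (vertical axes, CPM + 1, log scale) in 5 splits of CD8A sp cells, with 1 line per dog joining its cells in each side of a split. GCSAM fell to 0 in the TRAV9-11/TRAJ28 cells of every dog, was higher with TCF7 in every dog (29.9, 43.9, 17.4 and 45.9 CPM) and lower with KLRG1 in every dog.

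The GCSAM+ CD8A sp cells were then set against the GCSAM- ones, 335 cells (46, 101, 46 and 142 by dog) against 6092, to find what else these cells held. They had more of the checkpoint receptor TIGIT and of TCF7 and CD7, and far less GZMK and other effector transcripts. The other 3 genes and FCER1G, GZMB and PDCD1 took part in the choice of the genes and are given without a test. TOX was at 242, 297, 308 and 322 CPM with GCSAM against 77.7, 80.4, 62.2 and 109 CPM without it, CD244 at 119 ± 15.7 against 47.9 ± 12.3 CPM, and FCRL5 at 66.0 ± 12.8 against 11.3 ± 6.23 CPM. FCER1G was found in 32.6, 46.5, 58.7 and 68.3% of the GCSAM+ cells and 20.2, 25.6, 15.2 and 24.9% of the others, GZMB in 31.0 to 47.8% against 55.7 to 66.7%, and PDCD1 in 0 to 2.17% against 6.05 to 11%. The level of GZMB differed more than its share, at 252, 117, 197 and 186 CPM with GCSAM against 1390, 1149, 1499 and 1919 CPM without it.

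Of 8096 genes, 303 were higher (3.74%) and 451 lower (5.57%) in GCSAM+ cells by edgeR. Moving the same way in every dog and reaching 20 CPM on the higher side were 249 higher and 376 lower genes, of which those with the largest changes are named. TIGIT rose from 2.77, 4.16, 2.48 and 6.24 CPM to 16.6, 33.9, 70.2 and 53.4 CPM (log2 fold change 3.34, SE 0.38, edgeR adjusted p = 0.000208). PLEKHG5 (3.23), PON2, a paraoxonase (3.23), the serine protease gene PRSS57 (2.97), NUGGC, a GTPase gene known from germinal center B cells (2.95), and GPA33 (2.91) rose with it. GZMK fell from 459, 922, 896 and 680 CPM to 13.3, 22.1, 50.2 and 29.1 CPM (log2 fold change -4.83, SE 0.30, edgeR adjusted p = 2.31e-06). ADGRG1, a receptor of cytotoxic lymphocytes (-5.31), fell in every dog. CX3CR1, the fractalkine receptor of effector cells, was lower in every dog, with means of 1.13 CPM in GCSAM+ and 38.6 CPM in GCSAM- cells. CX3CR1 could pass the filter on low counts only through the GCSAM- cells, so its test is not read as support. PLEK had 0 UMIs in GCSAM+ cells against 13.9 to 31.9 CPM. It was at least 17.5-fold lower against the floor of 3 UMIs.

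**Figure D4:**
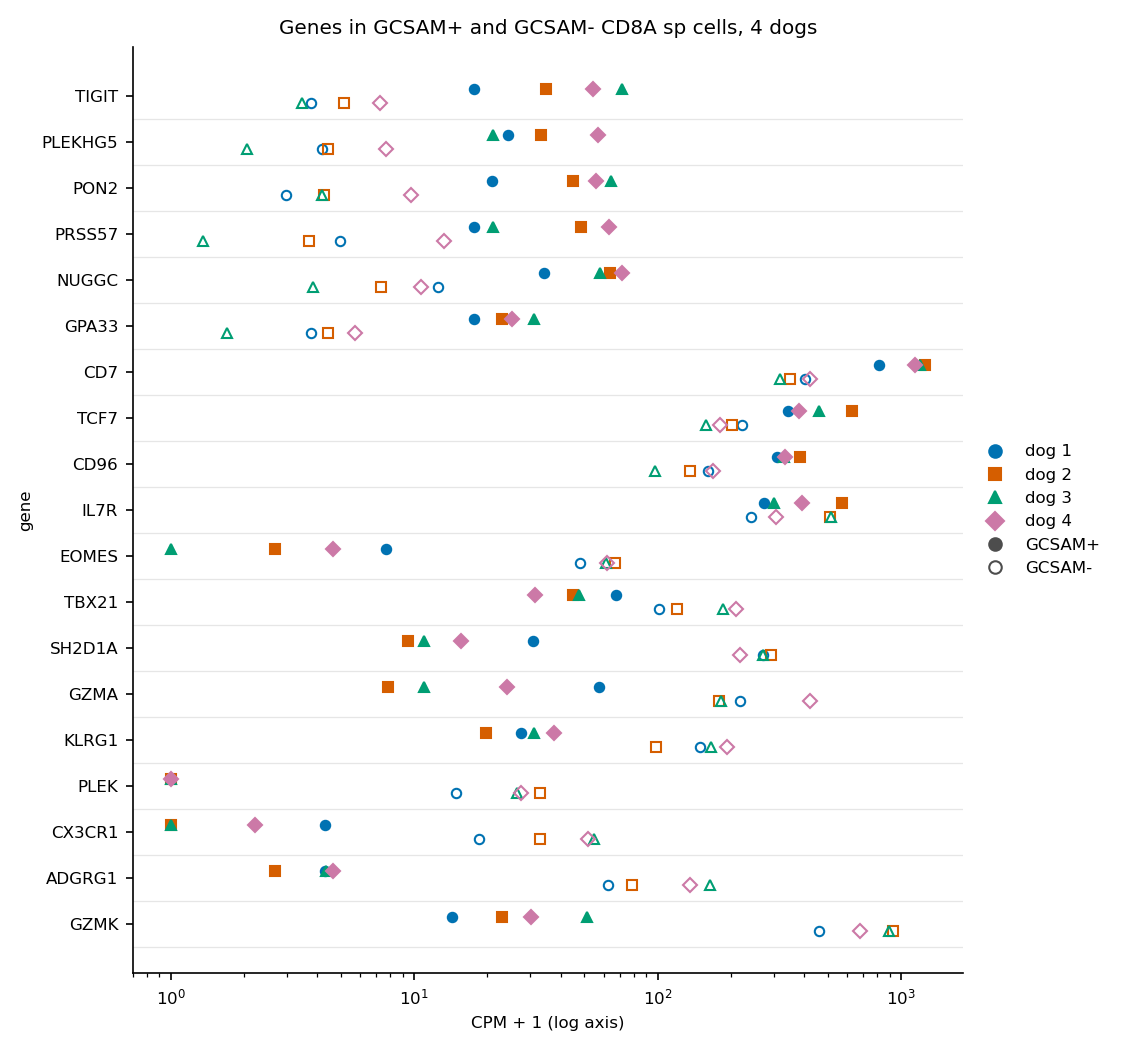
Levels of 19 genes (vertical axis) as CPM + 1 (horizontal log axis) in GCSAM+ (filled) and GCSAM- (open) CD8A sp cells, 1 point per dog. TIGIT, CD7 and TCF7 were higher with GCSAM in every dog, and GZMK and SH2D1A were lower in every dog.

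The gene lists were chosen with earlier results of these data known and are described by counts and medians. Of 10 tested cytotoxic effector genes 1 was higher and 6 were lower (median log2 fold change -1.97, all genes -0.0042): FASLG (-3.70), GZMA (-3.63) and KLRG1 (-2.51) fell with GZMK, PRF1 and CCL4, whereas CST7, a protease inhibitor gene named after its values were seen, rose by 0.53. Of 6 inhibitory receptors 3 rose (median 1.0), namely TIGIT, CD96 (1.19) and CD160 (0.94, higher in 3 of 4 dogs), and CTLA4 fell (-2.79). Of 13 transcription factors of exhausted and progenitor cells 2 rose and 5 fell (median -0.71). TCF7 rose from 221, 201, 157 and 179 CPM to 342, 630, 461 and 381 CPM (log2 fold change 1.17, edgeR adjusted p = 0.00103), and IKZF2, named after its values were seen, rose by 1.30. EOMES (-4.40), BCL6 (-3.48), NR4A1 (-2.12), TBX21 (-1.94) and ZEB2 (-1.53) fell.

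Of 8 naive and memory genes 1 was higher and 4 were lower (median -0.82). CD28 (-2.35), CCR7 (-2.22) and LEF1 (-1.49) were among those that fell, TCF7 rose, and IL7R differed by -0.12 (edgeR adjusted p = 0.860). In the SLAM family and its adaptors, 7 of which were tested beside CD244, SH2D1A fell from 269, 290, 271 and 217 CPM to 29.9, 8.49, 10.0 and 14.6 CPM (log2 fold change -4.28, edgeR adjusted p = 1.84e-06), SLAMF7 fell (-1.43) and CD48, the ligand of CD244, rose (0.54, but -0.15 after thinning), with a median of -0.01. Of 6 innate-like genes 1 rose, CD7 (1.46, from 316 to 423 CPM to 810 to 1258 CPM), and 2 fell, KLRB1 (-3.84) and ZBTB16 (-1.42), with a median of -1.05. All 3 tested follicular helper genes fell, SH2D1A, BCL6 and ICOS (-2.71), with a median of -3.48. Of 6 activation genes ICOS and CD40LG (-1.56) fell (median -0.26). Of the other TOX genes only TOX4 was tested (0.04), and none of the other FCRL genes was.

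The GCSAM+ cells were deeper than the others, with medians of 5923, 5774, 5498.5 and 4974 UMIs against 3831, 3828.5, 3548.5 and 3585. After thinning, edgeR called 129 genes, 32 higher and 97 lower, without clones of 10 or more cells 489 genes, 203 higher and 286 lower, without dog 3 357 genes and without dog 4 377 genes. GZMK, SH2D1A, CD7 and TIGIT had adjusted p values of at most 0.00607 in every alternative tried. The 2 tested genes of proliferating cells rose, MKI67 by 2.34 and TOP2A by 2.28, in 3 of 4 dogs, and proliferation genes had a UMI in 34 of 335 GCSAM+ cells (10.1%) and 2.40% of the others. MKI67 changed by -0.29 after thinning and TOP2A by -1.89 with at least 2 GCSAM UMIs, and dog 2 had less of both genes in its GCSAM+ cells. Of the 4 NK cell genes in the annotation all were at 0 in GCSAM+ cells against a sum of 14.2 to 20.1 CPM in the others, and NCR1 among them was at least 11.8-fold lower. The 9 B cell genes summed to 0 to 6.06 CPM against 4.35 to 8.58 CPM, with MS4A1, PAX5, CD22, POU2AF1 and EBF1 at 0. The myeloid genes summed to 408 to 671 CPM against 942 to 2034 CPM, mostly S100A8, which fell by 1.87 on the log2 scale. The 5 T cell genes summed to 3210 to 3528 CPM against 2904 to 3174 CPM, and 0 of the 5 were called by edgeR, with 1 at an unadjusted p under 0.05 and 1 called by DESeq2. More than 1 TRB was read in 6.80% ± 3.67 of the GCSAM+ and 4.02% ± 2.28 of the GCSAM- cells with a TRB. The part of depth and of cell doublets in these changes was not tested beyond these values.

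The receptors of the GCSAM+ cells are given as shares without a test. A TRB was read in 89.6% ± 0.572 of them and in 82.7% ± 2.51 of the GCSAM- cells. TRAV24 was carried by 17.1, 24.4, 20 and 48.3% of the GCSAM+ cells with a TRA and by 10.0, 13.7, 3.0 and 9.76% of the others, higher in every dog. TRAV9-11/TRAJ28 was carried by 0 of 283 GCSAM+ cells with a TRA, which allows a share of up to 1.06%, and by 675 of 4289 GCSAM- cells. TRAV43-1 was carried by 8.57, 38.9, 22.5 and 3.39% against 5.02, 8.42, 5.88 and 6.88%, so dogs 2 and 3 were the high dogs there, and dog 4 was not.

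FCRL5+ CD8A sp cells, 297 cells (48, 83, 38 and 128 by dog) against 6130, were compared in the same way, and TIGIT, NUGGC and PON2 were among the named genes that rose. Of the FCRL5+ cells 101 were also GCSAM+, so genes shared with the GCSAM comparison are not independent of it. EdgeR called 161 genes higher (2%) and 273 lower (3.39%) of 8044. NUGGC rose from 2.93 to 10.5 CPM to 39.7 to 69.6 CPM (log2 fold change 2.73, edgeR adjusted p = 0.00166), and TIGIT (2.69), UBE2C (2.67), PON2 (2.53) and PLK1 (2.37) rose, the genes UBE2C and PLK1 being known from cell division. UBE2C changed by -0.78 where at least 2 FCRL5 UMIs were required. Without dog 4 the edgeR calls of UBE2C (adjusted p = 0.338) and PLK1 (0.183) were lost. PLK1 (0.0572) and PON2 (0.0650) lost theirs without dog 3, and PON2 (0.0673) without dog 2. Proliferation genes had a UMI in 19 of 297 FCRL5+ cells (6.40%) and 2.63% of the others. In dog 2 they summed to less with FCRL5, at 15.4 against 51.0 CPM. GCSAM was at 81.9, 110.4, 144 and 70.9 CPM against 16.7, 16.3, 5.85 and 19.99 CPM, given without a test. RAB31 (-3.30), GZMK (-3.28) and VSTM1 (-3.25) fell.

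In the lists, 1 of 10 cytotoxic effector genes rose and 6 fell with FCRL5 (median -1.25, all genes -0.0044), among them KLRG1 (-2.63), FASLG (-2.49) and GZMA (-1.93). Of 6 inhibitory receptors 3 rose (TIGIT, CD96 at 1.04 and CD160 at 0.99) and CTLA4 fell (-2.42), with a median of 1.01. TCF7 was the 1 of 13 transcription factors that rose (1.20), and EOMES (-2.28), NR4A1 (-2.01), ID3 (-1.49) and TBX21 (-1.48) fell (median -0.77). Of 8 naive and memory genes TCF7 rose and 3 fell, CD28 (-2.55) and LEF1 (-1.76) among them (median -1.08), and CD7 rose (1.42) while KLRB1 (-2.82) and KLRD1 (-0.93) fell among 6 innate-like genes (median -0.97). The FCRL5+ cells were deeper too, at medians of 4966.5 to 5175 UMIs against 3566.5 to 3883, and 16 genes were called after thinning, which left out dog 3 with fewer than 20 such cells. Leaving out dog 1, 2, 3 or 4 left 275, 258, 187 and 166 genes called. More than 1 TRB was read in 9.06% ± 7.13 of the FCRL5+ and 3.80% ± 1.85 of the FCRL5- cells with a TRB, higher in 3 of 4 dogs. The part of depth and of cell doublets in these changes was not tested beyond these values. All 4 NK cell genes were at 0, the B cell genes summed to 0 to 13.2 CPM against 4.26 to 8.75 CPM, and TRAV9-11/TRAJ28 was carried by 0 of 244 cells with a TRA, which allows up to 1.23%.

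For TOX+ and CD244+ CD8A sp cells fewer genes were called with no block in the design. With the dog as a block edgeR called 501 and 463 genes, against 620 with FCRL5 and 949 with GCSAM. Where at least 2 UMIs of the gene were required, the counts were 431 and 168, against 41 with FCRL5 and 266 with GCSAM. That setting left out dogs 1 and 3 for FCRL5 and dog 1 for GCSAM. With TOX (1611 cells against 4816), edgeR called 14 of 8677 genes, all higher (0.161% higher, 0% lower). At an unadjusted p under 0.05, 413 genes were lower, and DESeq2 called 58 higher and 28 lower. NUGGC rose (log2 fold change 2.60, edgeR adjusted p = 0.0327), as did TIGIT (2.45), GYG1 (1.15), RCAN2 (1.11), DENND4A (0.99) and CD7 (0.85). CD7 rose from 350, 341, 317 and 332 CPM to 662, 641, 452 and 770.5 CPM. GCSAM was at 52.5, 53.1, 33.4 and 57.0 CPM with TOX against 9.15, 9.15, 2.91 and 5.18 CPM without it. TIGIT was the 1 of 6 inhibitory receptors called (median 0.47, all genes 7.73e-05) and CD7 the 1 of 6 innate-like genes (median -0.65). Of 10 cytotoxic effector genes 0 were called (median -0.54), with 5 at an unadjusted p under 0.05 and 0 called by DESeq2, and of 13 transcription factors 0 were called (median -0.44), with 6 at an unadjusted p under 0.05 and 3 called by DESeq2. With the dog as a block 501 genes were called. Without the barcodes that libraries share 1 gene was called, and after thinning 1, in each case 1 of the other members. NUGGC, TIGIT, GYG1, RCAN2, DENND4A and CD7 were thus not called in either setting. Leaving out dog 1, 2, 3 or 4 gave 4, 0, 29 and 0 genes, and medians of depth were 3852.5 to 4766 UMIs with TOX and 3385 to 3724 UMIs without it.

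With CD244 (1065 cells against 5362), 8 genes were higher (0.0944% of 8476) and 11 lower (0.13%). The tyrosine kinase gene FES rose from 26.0, 21.3, 17.8 and 30.1 CPM to 98.9, 68.7, 51.5 and 88.2 CPM (log2 fold change 1.62, SE 0.21, edgeR adjusted p = 0.00901). CENPF (1.89) and TOP2A (1.81), genes of dividing cells, and RRAS2 (1.0), RCAN2 (0.92) and CD7 (0.81) rose. In dog 2 the proliferation genes summed to less with CD244, at 44.4 against 49.1 CPM. TOP2A lost its edgeR call without dog 1 (adjusted p = 0.0672), dog 2 (0.0522) or dog 4 (0.0610), and CENPF without dog 1 (0.0837), dog 3 (0.0633) or dog 4 (0.0751). CD52 (-2.24), CTLA4 (-2.16), CD40LG (-1.87), KRT18 (-1.62), CD28 (-1.46) and ICOS (-1.06) fell. CTLA4 was the 1 of 6 inhibitory receptors called (median 0.77, all genes -0.00036), CD28 the 1 of 8 naive and memory genes (median -0.67), and ICOS and CD40LG were 2 of 6 activation genes (median -0.05). Of 10 cytotoxic effector genes 0 passed in edgeR (median 0.07), with 3 at an unadjusted p under 0.05 and 1 called by DESeq2. CD244+ cells had medians of 3613 to 4535 UMIs against 3510.5 to 3888.5, and 463 genes were called with the dog as a block. Without dog 1, dog 2 or dog 4 the calls numbered 2, 1 and 10. After thinning 1 gene was called, and it was lower, so none of the rises kept its call there.

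Over 29 sums of a class in a dog with at least 50 cells, the genes whose log2(CPM + 10) followed each member most closely are given as a description, and these sums share dogs and libraries. The value over the 18 CD8A sums alone follows each value over all 29. GCSAM was followed by CD7 (Pearson's r = 0.938, CD8A sums 0.955), ENSCAFG00000013040 (0.936 and 0.955), TNFRSF6B (0.927 and 0.943), FES (0.915 and 0.902) and GMEB2 (0.885 and 0.880). FCRL5 was followed by CD7 (0.891 and 0.824), ENSCAFG00000041010 (0.889 and 0.898), GCSAM (0.885 and 0.863), TNFRSF6B (0.883 and 0.871) and ENSCAFG00000013040 (0.872 and 0.873). CD244 was followed by CD96 (0.952 and 0.840), PTPN22 (0.941 and 0.786), PLCG2 (0.936 and 0.830), ENSCAFG00000001593 (0.933 and 0.780) and RNF125 (0.921 and 0.662). TOX was followed by TOP3A (0.756 and 0.787), RCAN2 (0.732 and 0.858), SLC35D2 (0.720 and 0.788), TIGIT (0.695 and 0.719) and MYCBP2 (0.690 and 0.772), out of 8324 genes. The identifiers stand for genes with no symbol in the gene list. Among the members themselves CD244 and FCRL5 had 0.786 (CD8A sums 0.662), CD244 and GCSAM 0.655 (0.576), TOX and FCRL5 0.537 (0.686), TOX and GCSAM 0.514 (0.607) and TOX and CD244 0.275 (0.665).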

How the data were processed

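The authors deposited filtered matrices of UMI counts per gene and cell, and tables of assembled T cell receptor chains, made with Cell Ranger 5.0.1 per the submitters' processing notes on the dog assembly CanFam 3.1. The counts were raw and not normalized, and for the V and J gene names the reference set was not given in the sources used here. The gene list of dogs 2 to 4 was used for all 4 matrices, because the list of dog 1 had 27980 lines for 20257 rows. Doublets were not called. The part of doublets is described by cells with more than 1 TRB. The members, gene lists and comparisons were chosen with earlier results of these data known.

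UMIs were summed per dog and class of cells, so that cells were not replicates, and p-values rest on the spread between 4 dogs. Sums of a comparison left out CD4, CD8A and the gene that defined the cells. The sums were tested across all genes with edgeR 4.0.16 in R 4.3.3 (filterByExpr, TMM, glmQLFit and glmQLFTest, two-sided, Benjamini-Hochberg adjustment, threshold 0.05), with no block in the design. A dog entered with at least 20 cells on each side. DESeq2 1.42.0, RLE size factors, no filter on low counts, a block for the dog, thinning of cells to 2000 UMIs, at least 2 UMIs of the defining gene and leaving out each dog were the alternatives. The alternatives without shared barcodes and without clones of 10 or more cells were chosen after seeing the data. Both sides of a comparison come from the same dog, which pairs them, and the deviations of the paired sums correlated at 0.117 to 0.661. Genes named passed the threshold, moved the same way in every dog and reached 20 CPM on the higher side, with the 6 largest rises and 4 largest falls and up to 4 genes a list. The values of 1 gene that met this rule are not reported here. On simulated counts with 200 genes changed by 1 on the log2 scale, 98% were recovered for the TOX+ comparison (8678 genes) and 82.5% for the TRAV24 comparison (7693 genes). Of the genes called there, 5.77% and 1.20% were not among those changed. The changed genes were drawn from those above 20 CPM, and the simulated sums of a dog were not paired. These shares therefore do not cover genes below that level. Limits for a count of 0 are 3 counts and cover counting error only. Python 3.11.15, numpy 2.4.6, pandas 2.3.3 and scipy 1.17.1 were used.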

Additional observations from a re-analysis of the deposited data

Results flagged for a closer look

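In 9 of 81 groups of 4 dogs looked at, 1 dog stood apart, its gap to the nearest dog as a share of the whole range, exceeding Dixon's 95% critical value for 4 samples. For independent, normally distributed values chance flags about 1 in 20 groups. The groups here share cells and dogs and some hold counts of 0, so the 9 of 81 cannot be set against that rate. Dog 3 was low over all CD8A sp cells for FCRL5, at 4.66 CPM, and for GCSAM, at 9.55 CPM. Dog 4 was high for TOX in the CD8A sp FCER1G+ GZMB- PDCD1- cells, at 291 CPM, and in the CCR7+ LEF1+ CD8A sp cells for TOX, at 110.3 CPM, and for GCSAM, at 9.20 CPM. Dog 4 was also the only dog with GCSAM in the FCER1G- GZMB+ PDCD1+ CD8A sp cells, at 1.69 CPM from 1 UMI. Dog 2 was low for CD244 in the FCER1G- GZMB+ PDCD1- CD8A sp cells, at 39.7 CPM, and high for GCSAM in the CD4 sp FCER1G- GZMB- PDCD1+ cells, at 9.80 CPM. Dog 2 was the only dog with FCRL5 in the GATA3+ LGALS3+ CD4 sp cells, at 0.435 CPM.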

How the results depend on the processing

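Of 1694 gene values computed under alternatives for 146 genes and comparisons, 1383 kept their direction and side of the threshold, 234 lost and 62 gained the call and 15 reversed. The cause of these changes was not tested, except that thinning, a higher minimum of UMIs and leaving out a dog leave fewer counts. Members called were, for TRAV24, 1 with DESeq2 and 1 with no filter on low counts (0 in the report). For TRAV9-11/TRAJ28 they were TOX and GCSAM in the main setting, 1 after thinning and 3 with DESeq2, with no filter and without dog 3. GCSAM and FCRL5 had 0 UMIs on one side, so only the call of TOX is read. For expanded CD8A sp, expanded CD4 sp and FOXP3+ CD4 sp cells they numbered 0 after thinning and 0 to 1 without 1 dog. For TCF7+ cells the count was 3 with the dog as a block, 2 with DESeq2, 3 with no filter, 2 after thinning, 3 with at least 2 UMIs and 0 to 3 without 1 dog. For KLRG1+ cells it was 3 with the block, 2 with DESeq2, 1 with no filter, 1 without clones of 10 or more cells and 0 to 1 without 1 dog. The block changed no call of a member in the comparisons on TRA, expanded clones and FOXP3, and it added 2 member calls each with TOX+ and CD244+, where members are a description. Genes called with TOX+ were 501 with the block, 86 with DESeq2, 60 with no filter, 1 after thinning, 431 with at least 2 UMIs, 1 without shared barcodes and 0 to 29 without 1 dog. With CD244+ they were 463, 122, 89, 1 and 168 in the same order of settings, 78 without clones of 10 or more cells and 1 to 20 without 1 dog. With FCRL5+ they were 620 with the block, 16 after thinning, 41 with at least 2 UMIs and 166 to 275 without 1 dog. With GCSAM+ they were 949, 129, 266 and 357 to 582 in the same order, and 489 without clones of 10 or more cells. Levels moved for TOX in CD4 sp cells (82.3 CPM thinned, 87.7 CPM as a mean over cells), FCRL5 in its highest class (19.0 CPM thinned) and GCSAM in its highest class (71.7 CPM thinned). These classes were set again on the thinned counts, and with classes kept from all UMIs the thinned values were 77.8, 20.3 and 77.7 CPM. Log2 fold changes that reversed without 1 dog are given as ranges over the dogs left out. For cells with 2 TRA they ran from -0.13 to 1.34 for FCRL5 and -0.20 to 1.85 for GCSAM, both lowest without dog 4. For expanded CD4 sp cells they ran from -0.45 to 0.13 for TOX and -0.34 to 0.55 for GCSAM, and for TCF7+ cells from -0.040 to 0.41 for CD244. For IL7R they ran from -0.47 to 0.065 with FCRL5+ and -0.23 to 0.15 with GCSAM+. With FCRL5+, UBE2C was -0.78 with at least 2 UMIs, IL7R 0.48 thinned and 0.042 with at least 2 UMIs, and ZEB2 0.38 thinned. With GCSAM+, thinning gave IL7R 0.50, CD48 -0.15 and MKI67 -0.29, and TOP2A was -1.89 with at least 2 UMIs. The highest class was unchanged in 27 of 28 alternatives, the exception being FCRL5 after thinning. Fewer than 20 cells left out dog 3 for FCRL5 thinned, dogs 1 and 3 for FCRL5 with at least 2 UMIs and dog 1 for GCSAM with at least 2 UMIs.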

Other observations

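Outside the CD4 and CD8A sp cells the 4 genes were also found. In the 725 dp cells, at a median of 5656 UMIs, the means over dogs were 74.6 CPM for TOX, 20.2 CPM for CD244, 7.94 CPM for FCRL5 and 6.83 CPM for GCSAM. In the 11510 dn cells, at a median of 3496 UMIs, they were 65.7 CPM for TOX, 4.91 CPM for CD244 and 1.30 CPM for FCRL5. GCSAM was found in 186 dn cells, at 6.82, 4.22, 6.05 and 5.20 CPM in dogs 1 to 4 (5.57 ± 1.12, SD, n = 4).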
